A study of Arabidopsis thaliana with 36 samples.

Results

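The transcripts described here were the most strongly lowered by antimycin A in wild type Arabidopsis seedlings. A probe set, the group of oligonucleotides that measures 1 transcript on the array, was taken if its mean log2 intensity in wild type after antimycin A was at least 3 below that in wild type after water, with all 3 antimycin A arrays below all 3 water arrays. On the log2 scale 1 unit is a factor of 2. Of 22746 probe sets, 58 met this rule, 1 of them (for CHIL, AT5G05270) was left out by it, and none was encoded in the plastid, which left 57. The gene table gave 1 gene for 30 of the 57, several genes for 2 and no entry for 25, and only the 30 are given a gene name. The 6 wild type arrays after antimycin A and water chose the members, so their values are a description and carry no test. Every test below rests on the other 30 arrays.

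The data were 36 one-colour Affymetrix ATH1 arrays of total RNA from green leaf tissue of Columbia seedlings aged 14 days, with 1 sample per array and 3 arrays in each of 12 groups. The genotypes were anac017-2 (labelled gain of function), rao2 (a line from chemical mutagenesis), anac017-1 (a T-DNA insertion line labelled knock-out) and wild type (labelled Col:LUC). Seedlings of each were sprayed with 50 µM antimycin A, 20 mM hydrogen peroxide or water and sampled 3 h later. Whether the mutants carry the reporter of the wild type line, or were backcrossed, is not stated, so a difference between a mutant and wild type may include genetic background. ANAC017 had no named probe set, so the genotype labels were not checked against it. The labels do not say whether the 3 samples of a group came from separate cultures, so the spread behind the p-values may be technical, and the number of arrays limits the precision. In leaf tissue, fewer cells of a type and less RNA per cell cannot be told apart.

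Antimycin A blocks complex III of the mitochondrial respiratory chain. The block reduces electron flow to oxygen by the cytochrome path and raises reactive oxygen in the organelle, and the nucleus answers with changed transcript levels, which is called mitochondrial retrograde signalling. ANAC017 is a NAC transcription factor held in the membrane of the endoplasmic reticulum. It is released to the nucleus under mitochondrial stress and is best known for raising transcripts such as that of the alternative oxidase. The transcripts named here include GDSL lipases, which are secreted esterases that act on lipids of the cuticle and cell surface, and proteins and enzymes of the cell wall. Others are glycosyltransferases, which attach sugars to small molecules such as flavonols, and genes known from the response to low oxygen.

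Array medians over all probe sets ran from 77.5 to 83.3 intensity units, and arrays of 1 group correlated at 0.983 to 0.997. The wild type arrays after antimycin A did not lie together for these transcripts. The median of the 57 was 2.47 log2 on replicate 3, against 4.49 and 3.67 on replicates 1 and 2. Levels no higher than the first quartile of all probe sets on the same array, 2.45 to 2.56 log2, were taken as not above background, and 30 of the 57 were so low on replicate 3, against 11 and 16 on the others. Without that array 40 probe sets met the rule, 35 of them among the 57, and without wild type antimycin A replicate 1 there were 98, of which 52 were shared. The LHCB4.1 and LHCB4.2 transcripts of green tissue, 2 of 20 listed photosynthesis genes with a named probe set, had summed group means of 25501 to 34344 intensity units over the 12 groups. Of 8 root markers 3 were measured, with sums of 14.8 to 44.1, and EXPA7 was not above background on any of the 36 arrays.

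The transcripts were measured above background in seedlings sprayed with water. Their median there was 7.29 log2 in anac017-2, 7.22 in rao2, 6.81 in anac017-1 and 7.35 in wild type. None of the 57 was at or below background on 2 or 3 arrays of any water or peroxide group. In wild type water the rule makes this likely, since members had to fall by at least 3. Of all probe sets, 24.9% to 25.1% were so low in the antimycin A groups. Among the 57, this held after antimycin A for 1 in anac017-2, 6 in rao2, 12 in anac017-1 and 14 in wild type. For those groups the level was not measured, and the change is a bound on its size. Loci with 1 gene lay on all 5 chromosomes, and the nearest pair, AT5G45700 and AT5G45950, were 32 genes apart.

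**Figure D1:**
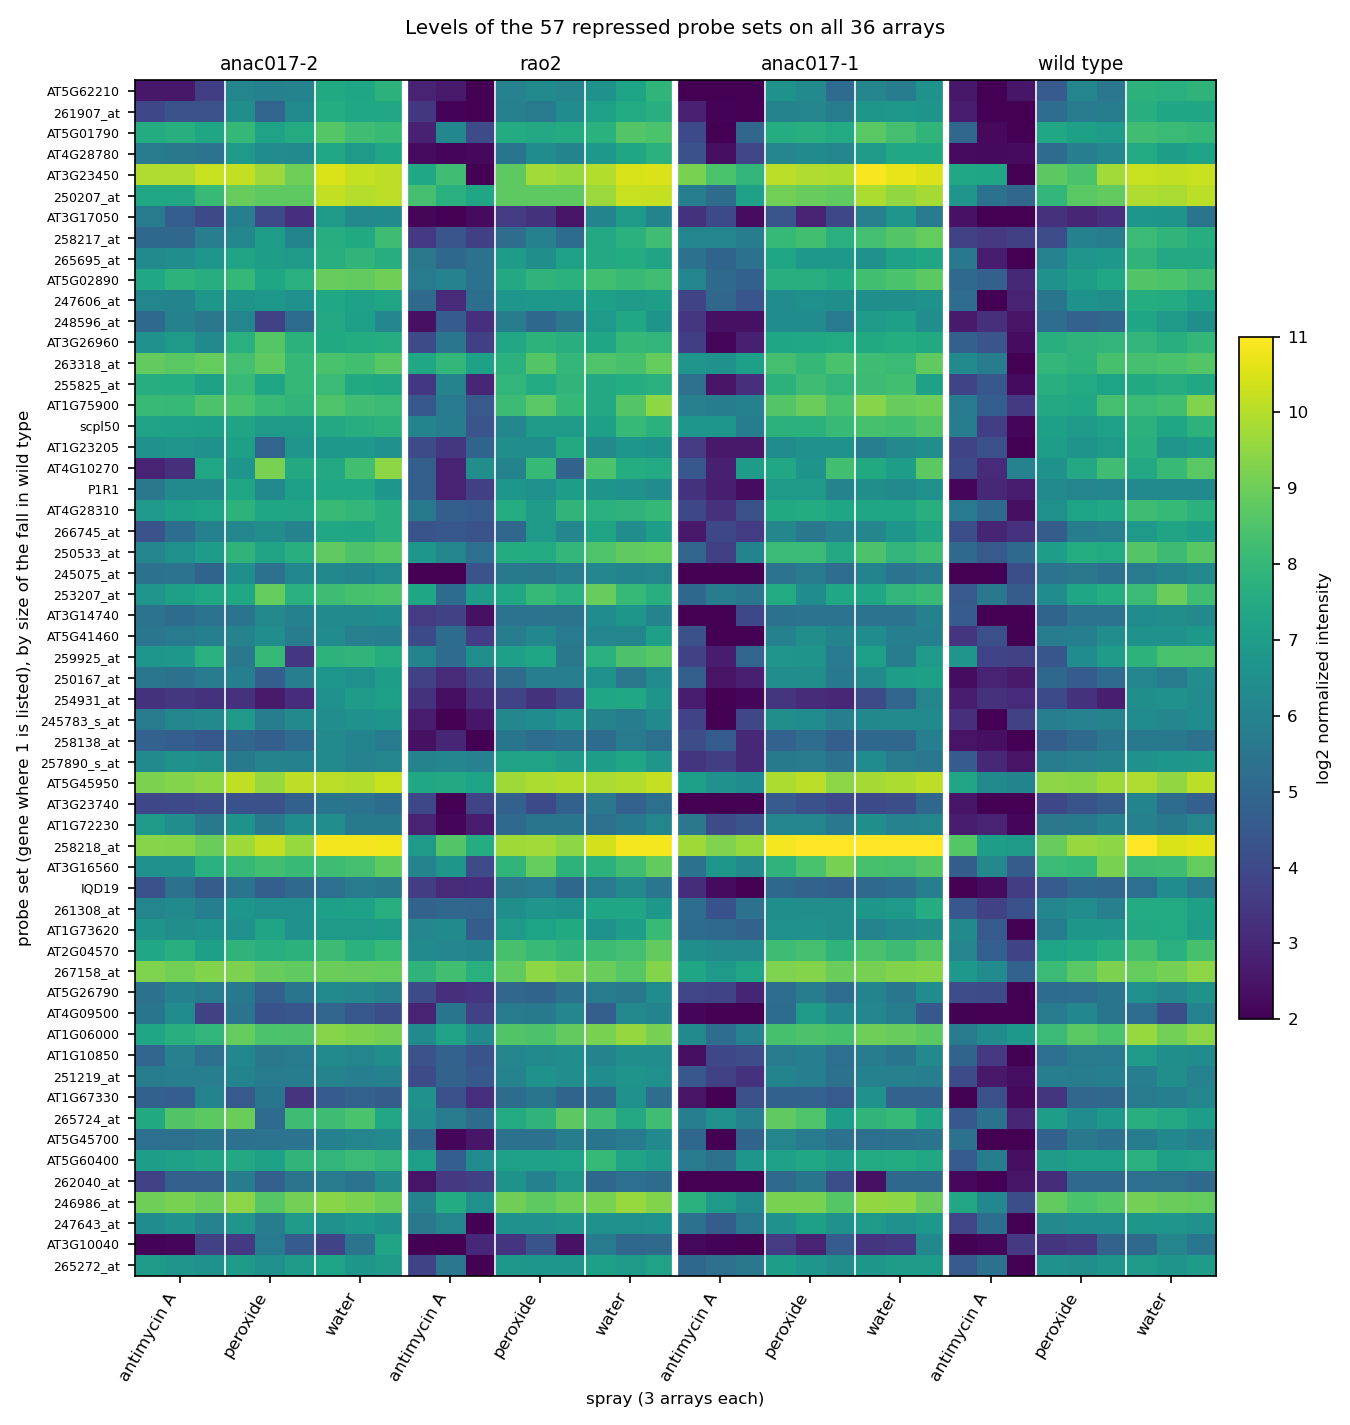
Log2 normalized intensity (colour) of the 57 probe sets (rows, by size of the fall in wild type) on all 36 arrays (columns, 3 per spray, grouped by genotype). The antimycin A columns are dark in rao2, anac017-1 and wild type and mostly lighter in anac017-2, while the peroxide columns lie between them and the water columns, with array medians that average 6.21 to 6.66, against 6.86 to 7.35 after water.

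Averaged over the 3 array medians, the level of the 57 after antimycin A was 6.28 ± 0.15 log2 in anac017-2, 4.46 ± 0.40 in rao2, 4.21 ± 0.31 in anac017-1 and 3.54 ± 1.02 in wild type (SD, n = 3 each). After water it was 7.35 ± 0.05 in anac017-2, 7.21 ± 0.10 in rao2, 6.86 ± 0.08 in anac017-1 and 7.30 ± 0.21 in wild type. All 3 antimycin A arrays of anac017-2 lay above all 9 of the other genotypes, and below all 3 of its own water arrays. The peroxide arrays lay between the sprays, at 6.57 ± 0.13 in anac017-2, 6.66 ± 0.08 in rao2, 6.52 ± 0.06 in anac017-1 and 6.21 ± 0.30 in wild type. Among the mutants the order of the antimycin A levels was thus anac017-2, rao2, anac017-1, with wild type below them. The rule chose members that were low on the wild type antimycin A arrays. The place of wild type, below anac017-2 and last, therefore follows in part from that choice. The neighbours rao2 and anac017-1 overlapped, and so did anac017-1 and wild type.

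**Figure D2:**
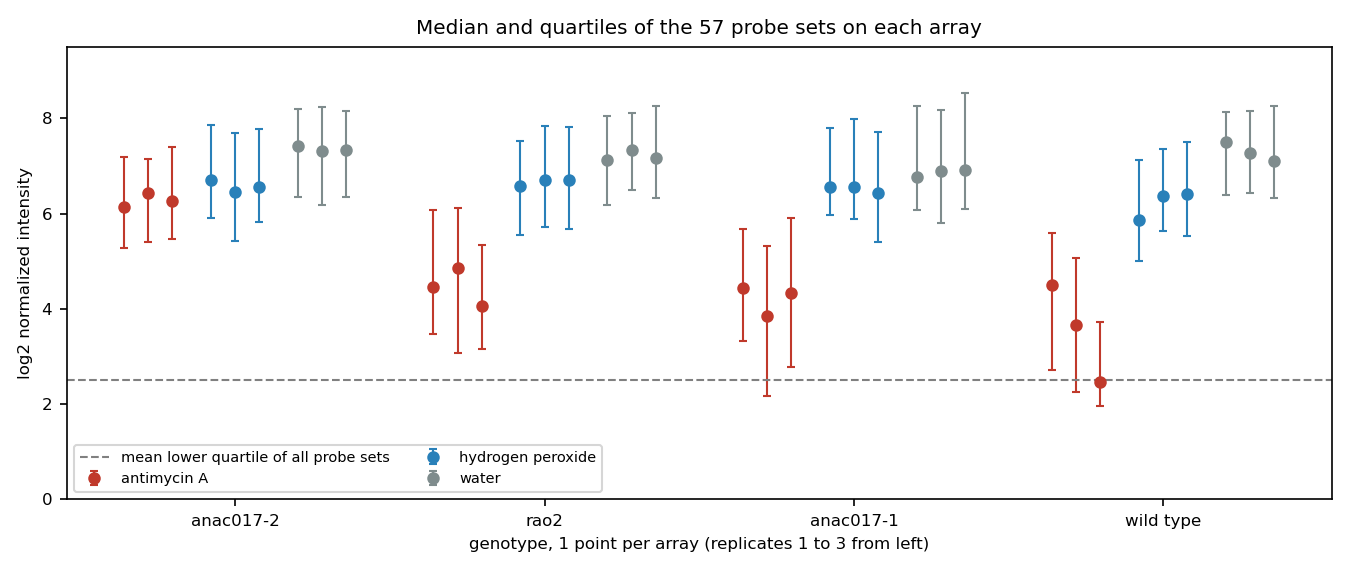
Median (point) and quartiles (bars) of the 57 probe sets on each of the 36 arrays, in log2 normalized intensity, with the mean lower quartile of all probe sets as a dashed line. The antimycin A medians are 6.13 to 6.43 in anac017-2, 4.06 to 4.86 in rao2, 3.85 to 4.44 in anac017-1 and 2.47 to 4.49 in wild type.

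The first question was how far the fall seen in wild type occurred in the mutants. Against water, antimycin A lowered 22 of the 57 in anac017-2, where 8.84% of all probe sets were called lower. It lowered 56 in rao2, where 26.1% of all were called lower, and 54 in anac017-1, where 27.8% were (limma, Benjamini-Hochberg adjusted p under 0.05 over all 22746). None of the 57 was called higher, where 7.03% of all were in anac017-2, 16.5% in rao2 and 17.7% in anac017-1. The median change was -0.92 in anac017-2, -2.64 in rao2, -2.63 in anac017-1 and, as chosen, -3.47 in wild type. Over all 22746 probe sets the median change lay between -0.02 and 0.00 in the 4 genotypes. The fifth percentile over all was -0.61 in anac017-2, -1.22 in rao2, -1.36 in anac017-1 and -1.28 in wild type. A change of -1 or lower was seen in 24 of the 57 in anac017-2, 55 in rao2 and 57 in anac017-1. Of all probe sets, 1.86% had such a change in anac017-2, 8.02% in rao2 and 10.1% in anac017-1.

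All 22 that fell in anac017-2 also fell in both other mutants. With 56 of the 57 called in rao2 and 54 in anac017-1, those counts nearly fix this overlap. The overlap over all probe sets was not counted. The members not called were AT1G67330 in rao2, and AT3G23450, AT5G45700 and 247643_at in anac017-1. AT3G23450 in anac017-1 was called with values raised to the quartile (adjusted p = 0.038), a filter on low values (0.045) and array weights (0.040). Calls that held without any 1 array of the comparison numbered 15 of 22 in anac017-2, 49 of 56 in rao2 and 48 of 54 in anac017-1. The 35 probe sets that met the rule without wild type antimycin A replicate 3 gave 19 calls in anac017-2, 35 in rao2 and 35 in anac017-1. Of all probe sets, 8.84%, 26.1% and 27.8% were called lower in these mutants. A sign of RNA quality moved with the spray in rao2 and anac017-1. The log2 excess of 3' over 5' control probes averaged 4.2 after antimycin A and 4.22 after water in anac017-2, 4.77 and 4.39 in rao2, 5.01 and 4.49 in anac017-1, and 4.26 and 4.24 in wild type. Its part in the result was not tested.

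**Figure D3:**
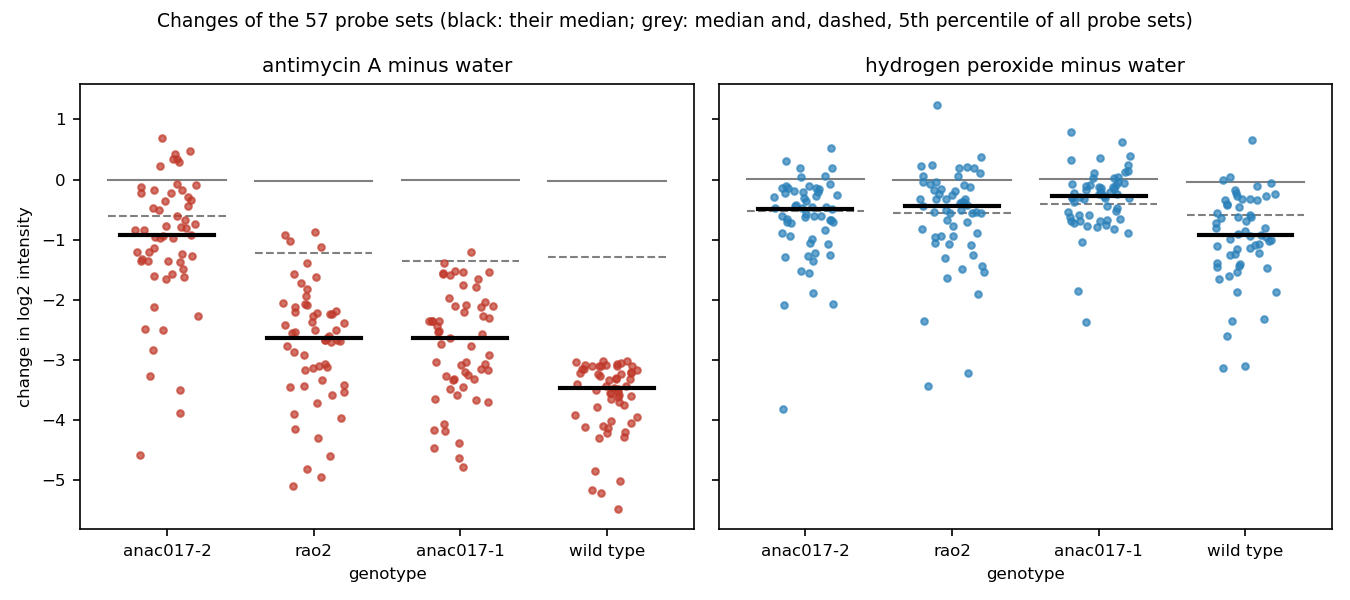
Change in log2 intensity of each of the 57 probe sets (points) by genotype, for antimycin A minus water (left) and hydrogen peroxide minus water (right). Black bars are their medians, grey lines the median and dashed grey lines the fifth percentile of all 22746 probe sets. The antimycin A medians are -0.92 in anac017-2, -2.64 in rao2, -2.63 in anac017-1 and -3.47 in wild type, where the rule sets the upper limit of -3.

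The second question was whether the response to antimycin A differed between the mutants, tested as the difference of the changes. The change was higher, that is a smaller fall, in anac017-2 than in anac017-1 for 31 of the 57, where 21.2% of all probe sets were called higher. Against rao2 it was higher for 34 of the 57, where 17.0% of all were. No member was called lower in either comparison, where 12.7% of all were against anac017-1 and 10.3% against rao2. The difference was above 0 for 53 against anac017-1 and 55 against rao2. Its median over the 57 was 1.83 against anac017-1 and 1.68 against rao2. Over all probe sets the median was 0.02 and 0.03, and the share above 0 was not counted. Without any 1 array, 28 of the 31 calls against anac017-1 and 26 of the 34 against rao2 held. Between rao2 and anac017-1, 1 member (257890_s_at) differed, by 1.60 ± 0.26 (SE), where 0.936% of all were called higher and 0.576% lower, and this call was lost when all 36 arrays shared the spread (adjusted p = 0.072). Across the 57, the changes in rao2 and anac017-1 correlated at 0.48 (Pearson), against 0.93 across all probe sets, as a description in which the 57 span a narrower range.

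**Figure D4:**
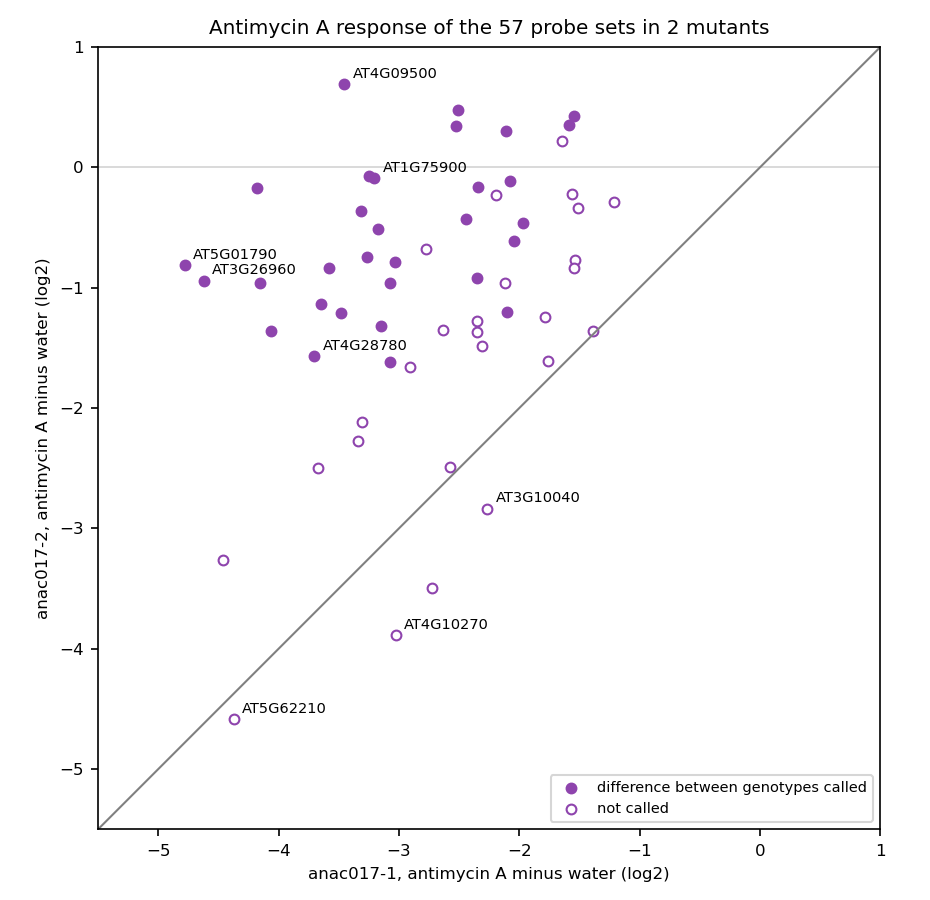
Antimycin A minus water in anac017-2 (vertical) against anac017-1 (horizontal), in log2 intensity, for the 57 probe sets; the line marks equal change. Filled points are the 31 whose change differed between the genotypes, and they lie above the line, while AT5G62210, AT4G10270 and AT3G10040 lie close to or below it, the first and last of these at levels not above background in anac017-1.

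GDSL lipases gave 4 of the 30 named members, AT4G28780, AT1G75900, AT5G45950 and AT2G04570, and all fell in rao2 and anac017-1. AT4G28780 had 5.75, 5.61 and 5.44 log2 after antimycin A in anac017-2, against 7.37, 6.85 and 7.29 after water. In rao2 it had 2.27, 2.15 and 2.18 after antimycin A, against 6.80, 7.34 and 7.75 after water. In anac017-1 it had 4.28, 2.33 and 3.89, against 6.87, 7.39 and 7.36. The sprays did not overlap in any mutant, and the antimycin A level in anac017-2 lay above all values of the other mutants after that spray. Its change was -1.57 ± 0.36 in anac017-2 (adjusted p = 0.0045) and -3.71 ± 0.36 in anac017-1 (adjusted p = 1.38e-08), where ± is the standard error of the fit. In rao2 and wild type it was not above background on any antimycin A array, so the changes of -4.80 and -4.75, with such values raised to the quartile, are bounds. The response in anac017-2 was higher than in rao2 by at least 3.23, with low values raised (adjusted p = 3.33e-05), and than in anac017-1 by 2.14 ± 0.51 (adjusted p = 0.0020).

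AT1G75900, known as EXL3 for its place among extracellular lipases, had overlapping values after antimycin A and water in anac017-2. It had 8.11, 8.04 and 8.48 log2 after antimycin A there, against 8.51, 8.24 and 8.15 after water. In anac017-1 it had 5.93, 5.78 and 5.96 after antimycin A, against 9.37, 8.92 and 9.0 after water, with no overlap. The change was -0.09 in anac017-2, with a 95% interval of -0.88 to 0.70, and it was -3.59 ± 0.38 in rao2 and -3.21 ± 0.38 in anac017-1. The response differed by 3.12 ± 0.54 between anac017-2 and anac017-1 (adjusted p = 9.36e-05) and by 3.50 ± 0.54 between anac017-2 and rao2 (adjusted p = 4.71e-05).

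AT5G45950 is a further lipase of this family. After antimycin A it had 9.23, 9.33 and 9.48 log2 in anac017-2, 7.38, 7.42 and 7.21 in rao2, 7.08, 6.54 and 6.37 in anac017-1 and 7.28, 6.26 and 6.06 in wild type. After water the 12 arrays lay between 9.54 and 10.25. It fell by 0.74 ± 0.17 in anac017-2 (adjusted p = 0.0057), by 2.68 ± 0.17 in rao2 and by 3.26 ± 0.17 in anac017-1, and the fall in anac017-2 was called without any 1 array. AT2G04570 fell by 2.27 ± 0.18 in rao2 and by 2.04 ± 0.18 in anac017-1. Its fall in anac017-2, -0.61 ± 0.18 (adjusted p = 0.021), was no longer called without either of antimycin A replicates 1 and 3 or water replicates 1 and 3, where it ran from -0.60 to -0.47.

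On the list of 16 GDSL lipases written for this work, 15 were measured and 2 (AT4G28780 and AT2G04570) were members. Of the other 13, of which those named here were chosen after their values were seen, antimycin A lowered 3 in anac017-2, 6 in rao2 and 7 in anac017-1, and raised none in anac017-2 and 1 (AT1G28600) in each of rao2 and anac017-1. The AT1G28600 call in rao2 was lost with quantile normalization (adjusted p = 0.060), when all 36 arrays shared the spread (adjusted p = 0.12) and without each of 4 of the 6 arrays in turn. The median change of these 13 was -0.28 in anac017-2, -0.52 in rao2 and -1.55 in anac017-1. Of all probe sets, 8.84% were called lower in anac017-2, 26.1% in rao2 and 27.8% in anac017-1. Called higher were 7.03%, 16.5% and 17.7% of all in these mutants. AT1G29660 fell by 2.38 ± 0.18 in rao2 and by 2.03 ± 0.18 in anac017-1, against a change of -0.29 ± 0.18 in anac017-2. AT2G42990 fell in anac017-1 by 2.56 ± 0.10 and had changes of -0.16 ± 0.10 in anac017-2 and -0.02 ± 0.10 in rao2.

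Cell wall and secreted proteins formed the next group. AT3G26960 codes for a protein of the pollen Ole e 1 and extensin family. It had 6.57, 6.91 and 6.26 log2 after antimycin A in anac017-2, against 7.48, 7.53 and 7.57 after water, and a change of -0.94 ± 0.36 that did not pass the test (adjusted p = 0.088). In anac017-1 it had 3.68, 2.17 and 2.77, against 7.47, 7.58 and 7.45, a fall of 4.62 ± 0.36 (adjusted p = 6.32e-10). The arrays of the sprays did not overlap in either genotype. The response was higher in anac017-2 than in anac017-1 by 3.68 ± 0.52 (adjusted p = 8.87e-06) and than in rao2 by 2.39 ± 0.52 (adjusted p = 0.0013).

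AT1G23205, an inhibitor of the invertase and pectin methylesterase family, had 6.63, 6.70 and 6.61 log2 after antimycin A in anac017-2, against 6.79, 6.80 and 6.57 after water. It had 3.55, 2.62 and 2.62 in anac017-1 after antimycin A, against 5.88, 6.24 and 6.42 after water. The groups overlapped in anac017-2 and were apart in anac017-1, where the fall was 3.25 ± 0.42 (adjusted p = 7.97e-07). In rao2 the fall was 2.42 ± 0.42. The response differed by 3.18 ± 0.59 between anac017-2 and anac017-1 (adjusted p = 0.00019).

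AT3G23450 and AT3G17050 code for glycine-rich sequences, and the gene table lists AT3G17050 as a pseudogene. AT3G23450 had 9.96 log2 on rao2 water replicate 1 and 10.11 to 10.92 on the other 11 water arrays. After antimycin A it had 9.92, 9.93 and 10.26 in anac017-2, 7.40, 8.24 and 1.49 in rao2, 9.20, 8.45 and 7.92 in anac017-1 and 7.41, 7.33 and 1.39 in wild type. Replicate 3 of rao2 and of wild type stood far below its partners. With all arrays the change in rao2 was -4.60 ± 0.98 (adjusted p = 0.00048), and without antimycin A replicate 3 it was -2.5 (adjusted p = 3.00e-05). The response was higher in anac017-2 than in rao2 by 4.37 ± 1.38 (adjusted p = 0.021), and by 2.26 without that array (adjusted p = 0.0037). The call with all arrays was lost when all 36 arrays shared the spread (adjusted p = 0.058).

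AT3G17050 was low after both active sprays. After antimycin A it had 5.73, 4.68 and 3.97 log2 in anac017-2, 2.12, 1.72 and 2.27 in rao2, 3.31, 4.00 and 2.29 in anac017-1 and 2.43, 1.94 and 1.67 in wild type, against 5.47 to 6.89 over the 12 water arrays. After hydrogen peroxide it had 5.90, 3.97 and 3.24 in anac017-2, 3.56, 3.31 and 2.49 in rao2, 4.37, 2.90 and 3.95 in anac017-1 and 3.27, 2.96 and 3.24 in wild type. Neither active spray overlapped with water in any genotype, which the rule fixed for antimycin A in wild type. The antimycin A change was -1.66 ± 0.56 in anac017-2 (adjusted p = 0.048), and without each of the 6 arrays in turn it ran from -2.13 to -1.25 and was called 1 time. It was -2.91 ± 0.56 in anac017-1 (adjusted p = 0.00015). In rao2 it was not above background after antimycin A, with a bound of -3.84. The response was higher in anac017-2 than in rao2 by at least 2.18, with low values raised (adjusted p = 0.041). That call was lost in the fit without anac017-2 antimycin A replicate 1 (adjusted p = 0.055).

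AT1G67330, of the DUF579 family that includes methyltransferases of wall polysaccharides, was uneven between arrays. It fell by 2.51 ± 0.75 in anac017-1 (adjusted p = 0.0076; -1.91 with an adjusted p of 0.060 without water replicate 1) and had a change of -0.87 ± 0.75 in rao2 (adjusted p = 0.42), where the antimycin A values were 6.61, 4.26 and 3.25. The difference between anac017-2 and anac017-1, 2.99 ± 1.05 (adjusted p = 0.032), was lost without each of 6 of the 12 arrays in turn, with values down to 2.39. AT1G72230, a cupredoxin (small copper protein of the cell surface), had 6.88, 6.43 and 5.64 log2 after antimycin A in anac017-2, against 6.40, 5.63 and 5.63 after water, an overlap. It fell by 3.11 ± 0.36 in rao2 (adjusted p = 2.6e-07) and by 1.55 ± 0.36 in anac017-1 (adjusted p = 0.00099), and the response in anac017-2 was 3.53 ± 0.51 above that in rao2. AT1G73620, a thaumatin-like protein, fell by 1.57 ± 0.36 in rao2 and by 1.21 ± 0.36 in anac017-1, and neither call held when all 36 arrays shared the spread (adjusted p = 0.053 in rao2 and 0.14 in anac017-1).

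Transferases and other enzymes of small molecules came next. AT1G06000 is UGT89C1, which adds rhamnose to flavonols. It had 7.28, 7.63 and 7.94 log2 after antimycin A in anac017-2, against 9.35, 9.23 and 9.12 after water. In anac017-1 it had 6.26, 5.21 and 5.97, against 9.02, 8.92 and 8.72. It fell in all mutants, by 1.62 ± 0.24 in anac017-2 (adjusted p = 0.00013), 2.70 ± 0.24 in rao2 and 3.07 ± 0.24 in anac017-1, with no overlap between the sprays. The response still differed between anac017-2 and anac017-1 by 1.46 ± 0.34 (adjusted p = 0.0018).

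AT5G02890 is an acyltransferase of the HXXXD family. It had 7.40, 7.82 and 7.59 log2 after antimycin A in anac017-2, against 8.90, 8.82 and 9.04 after water, and fell by 1.32 ± 0.25 there (adjusted p = 0.0013). It fell by 2.50 ± 0.25 in rao2 and by 3.15 ± 0.25 in anac017-1, and the response in anac017-2 was 1.83 ± 0.36 above that in anac017-1 (adjusted p = 0.00035). AT4G09500, a UDP-glycosyltransferase, responded at least 3.70 higher in anac017-2 than in anac017-1, with low values raised (adjusted p = 0.0030). It had 5.51, 6.35 and 3.75 log2 after antimycin A in anac017-2 and 2.15, 2.03 and 1.90, none above background, in anac017-1. After water it had 4.95, 4.43 and 4.17 in anac017-2 and 6.16, 5.82 and 4.46 in anac017-1, so part of the gap lay in the water arrays. Its fall in rao2, -1.62 ± 0.65 (adjusted p = 0.049), was lost without antimycin A replicate 1 or 3 or water replicate 2 or 3, and ran from -2.36 to -1.03.

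AT5G41460, of a glycosyltransferase family, fell by 2.18 ± 0.45 in rao2, with a bound of -2.97 in anac017-1, against -0.36 ± 0.45 in anac017-2. The response was higher in anac017-2 than in anac017-1 by at least 2.61, with low values raised (adjusted p = 0.00080). The serine carboxypeptidase-like gene scpl50 (AT1G15000) fell by 2.24 ± 0.32 in rao2 and by 1.97 ± 0.32 in anac017-1, against -0.47 ± 0.32 in anac017-2. Its difference between anac017-2 and anac017-1, 1.51 ± 0.46 (adjusted p = 0.013), was lost when all 36 arrays shared the spread (adjusted p = 0.13), and wild type had 5.77, 3.67 and 2.12 after antimycin A, which lie far apart.

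2 members are known from the response to low oxygen, AT4G10270, a wound-responsive family gene induced by hypoxia, and AT3G10040, the trihelix factor HRA1 that restrains a hypoxia regulator. They were lowered in all 3 mutants. AT4G10270 had 2.85, 3.25 and 7.40 log2 after antimycin A in anac017-2, 4.72, 2.85 and 6.43 in rao2, 4.44, 2.79 and 6.93 in anac017-1 and 4.03, 3.07 and 6.0 in wild type. Replicate 3 was the highest in every genotype. On the water arrays replicate 3 was also the highest in anac017-2, anac017-1 and wild type, but not in rao2. The replicate numbers were not taken to pair the samples, and the main fit has no term for them. After water the values ran from 7.03 to 9.48, a range that includes the 7.40 of anac017-2. The changes were -3.89 ± 1.16 in anac017-2 (adjusted p = 0.025), -3.17 ± 1.16 in rao2 (adjusted p = 0.031) and -3.03 ± 1.16 in anac017-1 (adjusted p = 0.037), and with 1 of the 6 arrays left out the call held 2 times in anac017-2, 1 time in rao2 and 2 times in anac017-1, with changes of -5.34 to -3.06, -4.06 to -2.27 and -4.13 to -2.06 in these mutants.

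AT3G10040 had 2.1, 2.15 and 3.77 log2 after antimycin A in anac017-2, against 3.81, 5.48 and 7.24 after water. Its antimycin A level was not above background in any mutant, and the bounds were -2.58 in anac017-2, -2.62 in rao2 and -1.88 in anac017-1 (adjusted p in the fit 0.019 in anac017-2, 0.0051 in rao2 and 0.025 in anac017-1). In anac017-1 the call was lost with values raised to the quartile (adjusted p = 0.056) and with array weights (adjusted p = 0.053). The calls in anac017-2 and anac017-1 were lost without several single arrays, down to a change of -1.97 without water replicate 3 of anac017-2 and of -1.34 without that of anac017-1. For neither gene did the difference in response between anac017-2 and anac017-1 pass the test. The 95% interval was -4.28 to 2.55 for AT4G10270, and no size is given for AT3G10040, whose antimycin A levels were not above background in either mutant.

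**Figure D5:**
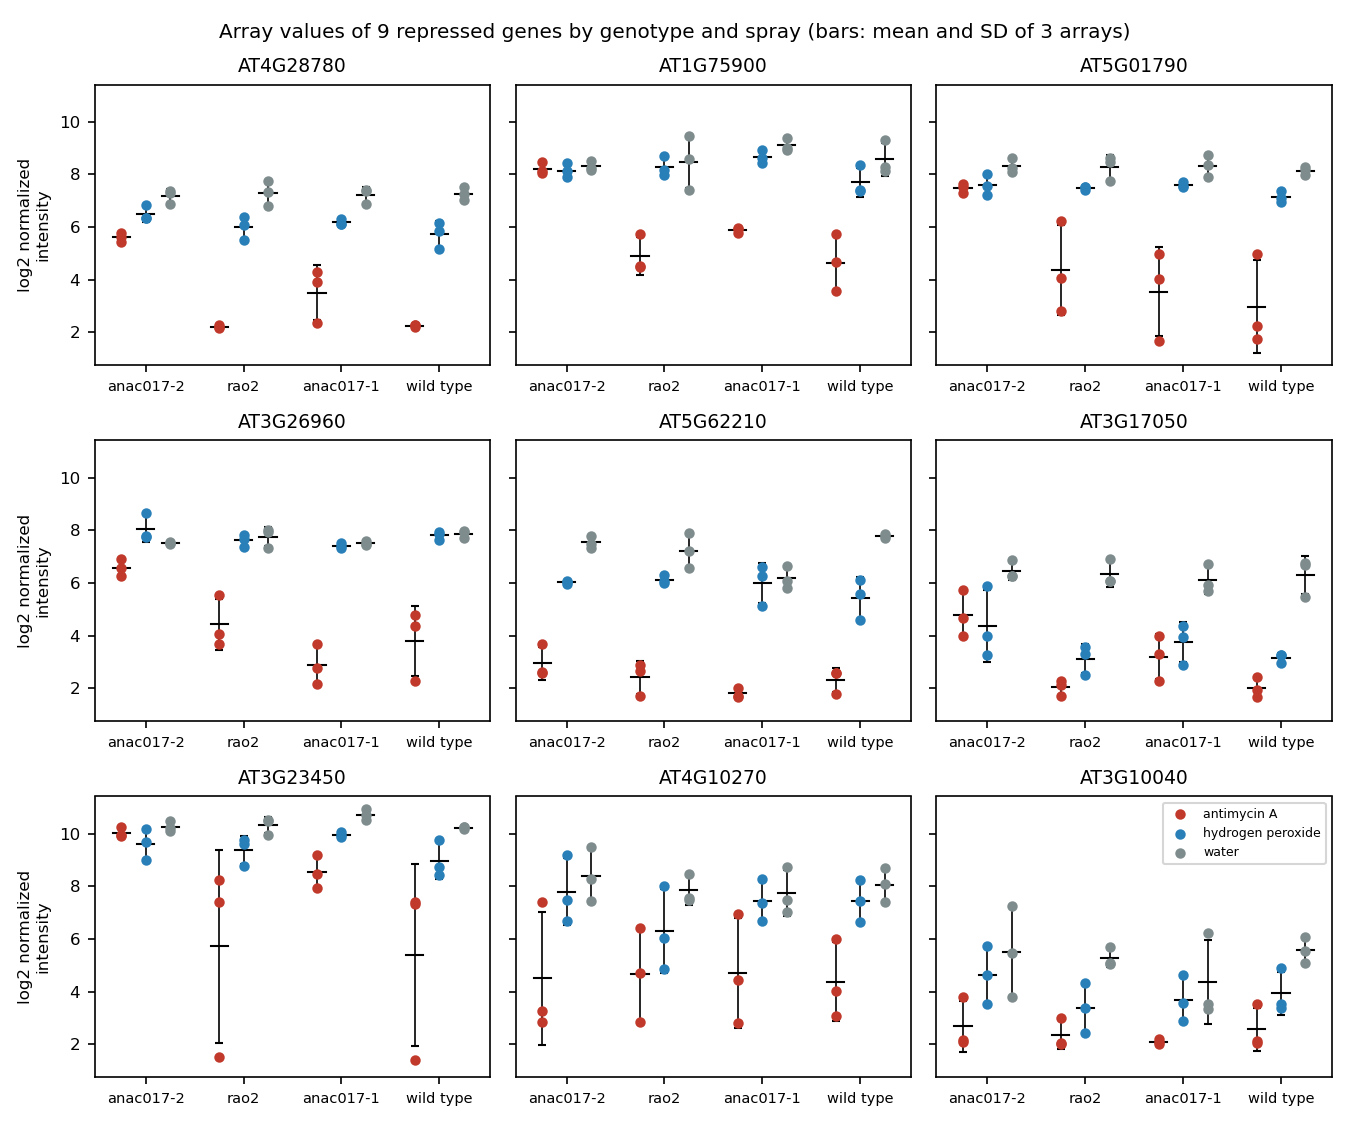
Log2 normalized intensity of 9 members on each array (points) by genotype and spray, with the mean and SD of 3 arrays as bars. AT4G28780, AT1G75900, AT5G01790 and AT3G26960 are higher after antimycin A in anac017-2 than in the other genotypes, AT5G62210 and AT3G10040 are below their water values in all 4, AT4G10270 has 1 high antimycin A array in each, up to 7.40 in anac017-2, and AT3G23450 has 1 antimycin A array at 1.49 in rao2 and 1 at 1.39 in wild type.

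AT5G62210, an embryo-specific protein related to ATS3, had a change of -5.48 in wild type, as chosen, and it was low in anac017-2 too. After antimycin A it had 2.58, 2.60 and 3.68 log2 in anac017-2, 2.88, 2.64 and 1.70 in rao2, 2.02, 1.69 and 1.68 in anac017-1 and 2.58, 1.79 and 2.56 in wild type. After water it had 7.48, 7.34 and 7.79 in anac017-2, 6.57, 7.20 and 7.89 in rao2, 6.09, 5.80 and 6.62 in anac017-1 and 7.79, 7.72 and 7.84 in wild type. The sprays were far apart in every genotype. It fell by 4.59 ± 0.41 in anac017-2 (adjusted p = 1.14e-06) and by 4.81 ± 0.41 in rao2 (adjusted p = 3.47e-09), with a bound of -3.70 in anac017-1. The difference in response between anac017-2 and anac017-1 did not pass the test (adjusted p = 0.91, and 0.25 with low values raised), and it has no measured size, since the level in anac017-1 was not above background.

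AT5G01790, for which no role is given here, had a smaller change in anac017-2 than in anac017-1. It had 7.53, 7.64 and 7.30 log2 after antimycin A in anac017-2, against 8.62, 8.22 and 8.07 after water. These arrays did not overlap, and the change was -0.81 ± 0.64 (adjusted p = 0.52). The standard error comes from a spread shared over the groups. The SD after antimycin A was 0.18 in anac017-2, 1.72 in rao2 and 1.70 in anac017-1. AT5G01790 had 2.82, 6.22 and 4.05 in rao2 and 4.02, 1.65 and 4.95 in anac017-1 after antimycin A, against 7.73 to 8.71 over their 6 water arrays. The response was 3.97 ± 0.91 higher in anac017-2 than in anac017-1 (adjusted p = 0.0015), and 3.02 to 4.68 without 1 array.

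Of regulatory and signalling genes, IQD19 (AT4G14750), which binds calmodulin by its IQ domain, fell by 2.51 ± 0.33 in rao2, with a bound of -2.69 in anac017-1. Its change in anac017-2 was -0.78 ± 0.33, and the response was higher than in anac017-1 by at least 1.91, with low values raised (adjusted p = 0.00073). AT1G10850, a receptor kinase with leucine-rich repeats, fell by 1.82 ± 0.34 in rao2 and by 2.35 ± 0.34 in anac017-1. Its difference of 1.43 ± 0.48 between anac017-2 and anac017-1 (adjusted p = 0.023) was lost when all 36 arrays shared the spread (adjusted p = 0.099) and without each of 4 arrays in turn, and it was 0.87 without anac017-1 antimycin A replicate 1. The protein phosphatase 2C AT3G16560 fell by 2.68 ± 0.53 in rao2 and by 2.31 ± 0.53 in anac017-1, against -1.49 ± 0.53 in anac017-2 (adjusted p = 0.061), and the difference of its response between anac017-2 and anac017-1, 0.82 ± 0.75, did not pass the test. AT3G14740, with a zinc finger of the RING, FYVE or PHD kind, fell by 3.13 ± 0.40 in rao2, with a bound of -2.65 in anac017-1, against -0.96 ± 0.40 in anac017-2. AT5G45700, a HAD-like hydrolase, fell by 2.60 ± 0.65 in rao2 (adjusted p = 0.0021), against changes of -0.77 ± 0.65 in anac017-2 and -1.54 ± 0.65 in anac017-1 (adjusted p = 0.058), where replicate 2 had 1.63 and its partners 5.02 and 4.89.

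Among the other members without a stated role, P1R1 (AT5G57780) fell by 2.76 ± 0.36 in rao2 and fell by 3.65 ± 0.36 in anac017-1. AT4G28310 fell by 2.87 ± 0.28 in rao2 and by 3.58 ± 0.28 in anac017-1. Both responses were higher in anac017-2 than in anac017-1, by 2.51 ± 0.51 for P1R1 and 2.74 ± 0.40 for AT4G28310. Their falls in anac017-2, -1.13 ± 0.36 for P1R1 (adjusted p = 0.037) and -0.84 ± 0.28 for AT4G28310 (adjusted p = 0.046), were lost without 5 and 6 of the 6 single arrays, with changes of -1.36 to -0.89 and -0.95 to -0.73. AT5G26790 fell by 2.37 ± 0.29 in rao2 and by 2.44 ± 0.29 in anac017-1, with a response 2.01 ± 0.41 higher in anac017-2 than in anac017-1. AT3G23740 fell in rao2 by 2.07 ± 0.41 and AT5G60400 by 1.39 ± 0.40. The differences between anac017-2 and anac017-1 did not pass the test for either. It was 0.71 ± 0.56 for AT5G60400 and has no measured size for AT3G23740, which was not above background in anac017-1 after antimycin A. The call of AT3G23740 in anac017-2, -1.36 ± 0.41 (adjusted p = 0.026), was lost without each of the 6 arrays in turn, with changes from -1.45 to -1.29.

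Of the 27 probe sets without a single gene name, antimycin A lowered 10 in anac017-2, 27 in rao2 and 26 in anac017-1. The shares of all probe sets called lower were 8.84%, 26.1% and 27.8%. The median change of the 27 was -1.20 in anac017-2, -2.55 in rao2 and -2.35 in anac017-1. The probe set 261907_at had a bound of -4.84 in wild type, where 2 of 3 antimycin A arrays were not above background, and fell by 3.27 ± 0.35 in anac017-2 (adjusted p = 5.39e-06). The probe set 254931_at fell by 3.50 ± 0.38 in anac017-2, by 4.15 ± 0.38 in rao2 and, as a bound, -2.46 in anac017-1.

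The third question was whether the other oxidative treatment lowered these transcripts. Hydrogen peroxide lowered 9 of the 57 in anac017-2 (5.3% of all probe sets were called lower), 7 in rao2 (6.43%) and 2 in anac017-1 (0.791%). It raised none of the 57, where 4.31% of all were called higher in anac017-2, 5.3% in rao2 and 0.866% in anac017-1. The median change was -0.49 in anac017-2, -0.44 in rao2, -0.28 in anac017-1 and -0.92 in wild type, where wild type water had also served to choose the members. The fifth percentile of all probe sets was -0.53 in anac017-2, -0.56 in rao2, -0.41 in anac017-1 and -0.59 in wild type. In all 10 members fell in at least 1 mutant. They were AT3G17050 and 254931_at in all 3, 261907_at, 250207_at, 258217_at and 258218_at in anac017-2 and rao2, AT5G62210, AT5G02890 and 248596_at in anac017-2, and AT4G28780 in rao2.

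These peroxide counts rested on single arrays. They were 3 and 4 in anac017-2 without water replicates 1 and 3 and 5 without peroxide replicate 2, 4 in rao2 without water replicate 2 or 3, and 0 in anac017-1 without peroxide replicate 2 or water replicate 3. Without any 1 array, 2 of the 9, 3 of the 7 and none of the 2 calls held. The fall of 254931_at was 3.82 ± 0.38 in anac017-2 (adjusted p = 3.68e-06), 3.44 ± 0.38 in rao2 (adjusted p = 6.99e-06) and 1.85 ± 0.38 in anac017-1 (adjusted p = 0.014). AT3G17050 fell by 2.08 ± 0.56 in anac017-2 (adjusted p = 0.023), 3.21 ± 0.56 in rao2 (adjusted p = 0.00074) and 2.37 ± 0.56 in anac017-1 (adjusted p = 0.033). The AT3G17050 calls were lost without most single arrays in anac017-2, with changes from -2.85 to -1.52, and in anac017-1, with changes from -2.68 to -1.95. The 254931_at call in anac017-1 was lost without peroxide replicate 2 or water replicate 3, where it was -1.83 and -1.32.

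AT5G02890 fell by 1.26 ± 0.25 after peroxide in anac017-2 (adjusted p = 0.0037), a call that held without any 1 array. AT5G62210 fell by 1.51 ± 0.41 in anac017-2 (adjusted p = 0.024) and AT4G28780 by 1.31 ± 0.36 in rao2 (adjusted p = 0.019), and each call was lost without each of 3 arrays in turn. The 22 members that fell after antimycin A in anac017-2, a division made after the values were seen, had a median peroxide change of -0.97 in rao2, -0.42 in anac017-1 and -1.31 in wild type. The other 35 had -0.32 in rao2, -0.20 in anac017-1 and -0.64 in wild type.

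Set directly against peroxide, antimycin A gave lower levels for 5 of the 57 in anac017-2, where 3.02% of all probe sets were called lower. It gave lower levels for 49 in rao2, where 24.5% were, and for 50 in anac017-1, where 28.2% were. None was higher, where 2.04% of all were in anac017-2, 13.8% in rao2 and 16.9% in anac017-1. The 5 in anac017-2 were AT5G62210, 261907_at, 250207_at, AT3G26960 and AT1G06000, with differences of -3.07 ± 0.41 for AT5G62210, -1.72 ± 0.35 for 261907_at, -1.23 ± 0.34 for 250207_at, -1.47 ± 0.36 for AT3G26960 and -0.99 ± 0.24 for AT1G06000. The calls of AT5G62210 and 261907_at held without any 1 array. That of 250207_at was lost without each of 5 of the 6 arrays, with array weights (adjusted p = 0.10) and when all 36 arrays shared the spread (adjusted p = 0.059), that of AT3G26960 without each of 3 arrays and when all 36 shared the spread (adjusted p = 0.059), and that of AT1G06000 without each of 3 arrays. Without anac017-2 antimycin A replicate 1 there were 2, and without antimycin A replicate 2 or peroxide replicate 1 there were 3.

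In water, 1 member differed between anac017-2 and anac017-1, where 1.32% of all probe sets were called higher and 2.93% lower. It was 254931_at, higher by 1.83 ± 0.38 (adjusted p = 0.0055). Under hydrogen peroxide, none of the 57 differed between anac017-2 and wild type in either direction, where 0.0879% of all were called higher and 0.0967% lower, and 6 members had an unadjusted p under 0.05. AT2G04570 and 257890_s_at were higher in rao2 than in wild type, where 1.53% of all were and 1.44% were lower, by 0.69 ± 0.18 and 1.21 ± 0.18. AT2G04570, 258217_at and 258218_at were higher in anac017-1 than in wild type, where 4.35% of all were, by 0.71 ± 0.18, 2.73 ± 0.39 and 1.63 ± 0.28. The AT2G04570 calls had adjusted p of 0.038 for rao2 and 0.016 for anac017-1 and each was lost without each of 4 arrays in turn.

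Lists of genes with related functions were also examined after antimycin A. Of their 333 loci 74 were measured, and 17 of the 18 lists held no member. Of all probe sets, antimycin A lowered 8.84% in anac017-2, 26.1% in rao2 and 27.8% in anac017-1. It raised 7.03%, 16.5% and 17.7% of all in these mutants. The counts per list are small and were not tested against these shares. Of 15 genes of cellulose and pectin, 7 were measured, none a member, and antimycin A lowered 1 in anac017-2, 5 in rao2 and 5 in anac017-1. The pectate lyase AT5G63180 fell by 2.07 ± 0.16 in rao2 and by 3.43 ± 0.16 in anac017-1, against 0.01 ± 0.16 in anac017-2, and AT1G04680 fell by 0.95 ± 0.15 in rao2 and by 1.1 ± 0.15 in anac017-1. Of 21 expansins, which loosen walls, 12 were measured, with 1 lower in anac017-2, 3 lower and 1 higher in rao2, and 5 lower and 2 higher in anac017-1. EXPA9 fell in anac017-1 by 2.13 ± 0.32, and EXLA3 rose by 2.82 ± 0.47 in rao2 and by 4.00 ± 0.47 in anac017-1. Of 23 xyloglucan endotransglucosylases, 8 were measured, with 4 lower in anac017-2, 2 lower and 3 higher in rao2, and 1 lower and 3 higher in anac017-1. XTH18 rose by 6.04 ± 0.71 in rao2 and by 5.51 ± 0.71 in anac017-1, and XTH32 fell by 0.66 ± 0.21 in anac017-2, 1.3 ± 0.21 in rao2 and 1.87 ± 0.21 in anac017-1.

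Of 42 cuticle and wax genes only WSD1, a wax ester synthase, was measured, and it fell by 3.25 ± 0.59 in rao2 and by 2.42 ± 0.59 in anac017-1, against 0.29 ± 0.59 in anac017-2. Of 16 class III peroxidases, which cross-link walls, 11 were measured, with none called in anac017-2, 2 lower and 2 higher in rao2, and 3 lower and 1 higher in anac017-1. PRX12 fell by 1.5 ± 0.24 and PRX71 rose by 2.31 ± 0.36 in anac017-1. Of 12 genes of tetrapyrrole synthesis 3 were measured. HEME2 fell by 1.27 ± 0.13 in rao2 and by 1.48 ± 0.13 in anac017-1, against a change of 0.02 ± 0.13 in anac017-2. PORB fell by 0.90 ± 0.18 in rao2 and by 1.24 ± 0.18 in anac017-1, against 0.35 ± 0.18 in anac017-2. CHLM, named after its values were seen, rose by 0.44 ± 0.10 in anac017-2.

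Of 12 cell division genes 3 were measured. The licensing factor gene PRL fell by 0.87 ± 0.25 in anac017-2, 1.67 ± 0.25 in rao2 and 1.60 ± 0.25 in anac017-1, and AUR2, an aurora kinase, fell by 1.79 ± 0.45 in rao2 and by 1.26 ± 0.45 in anac017-1. The photosynthesis gene LHCB4.2 rose by 0.43 ± 0.13 in anac017-2 and fell by 0.44 ± 0.13 in rao2 and by 0.45 ± 0.13 in anac017-1, while LHCB4.1 was called in none. WAG2 of 42 auxin genes (2 measured, with IAA29) fell by 1.69 ± 0.51 in rao2 and by 1.93 ± 0.51 in anac017-1. GASA9, the 1 measured of 23 brassinosteroid and gibberellin genes, fell by 0.39 ± 0.12 in rao2 and rose by 0.63 ± 0.12 in anac017-1. Of 8 cytokinin genes 2 were measured, and ARR16 fell by 1.08 ± 0.27 in anac017-1 while ARR15 was called in none.

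The next lists were markers of other cell types. Of 11 stomatal lineage genes 4 were measured, and FAMA fell by 0.92 ± 0.17 in anac017-1, with STOMAGEN called in none. Summed over the 4, group means ran from 397 units in wild type after antimycin A to 930 in anac017-2 after antimycin A. Of 8 root markers, EXPA18 fell by 0.90 ± 0.27 in rao2. TRY, the 1 measured of 8 trichome genes, was called in none, with means of 13.9 to 23.1 units. GI, the 1 measured of 13 clock genes, rose by 0.66 ± 0.14 in anac017-2. Of 28 arabinogalactan proteins and 18 aquaporins none had a named probe set. The calls of XTH32, PRL and LHCB4.2 in anac017-2, of WAG2, GASA9, LHCB4.2 and EXPA18 in rao2 and of AUR2 and LHCB4.2 in anac017-1 were lost without at least 1 single array, and EXPA18 was -0.38 without rao2 water replicate 1. The part of these markers in the results was not tested.

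The limit of -3 divided probe sets with near values. The last named members inside it were AT5G45700 at -3.09, AT5G60400 at -3.08 and AT3G10040 at -3.01, and the first named genes outside were UGT78D1 at -2.92, WSD1 at -2.92 and AT5G06270 at -2.92. UGT78D1 also glycosylates flavonols, as AT1G06000 does. With limits of -2.5 and -3.5 the rule would take 127 and 27 probe sets.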

How the data were processed

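RNA of 36 samples was measured on Affymetrix ATH1 arrays. The deposited values are normalized intensities on a linear scale, which the authors made from the scans. RMA and GCRMA are named without versions in the submitters' processing notes, without saying which was applied to these values. Detection calls, raw arrays and scan dates were not used here, so batches were not examined. Log2 was taken, 64 control probe sets were dropped, and 22746 entered the fit with no filter. Genes were named through the gene table given for the array where it lists 1 gene (13513 probe sets, 13436 of them matched to a locus in RefSeq's TAIR10.1 gene table).

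The test was limma 3.58.1 in R 4.3.3 (lmFit, eBayes) with 10 group means on the 30 arrays the rule did not use, which left 20 residual and 1.27 prior degrees of freedom. It shares 1 spread per probe set over the groups. P-values were adjusted over all 22746 by Benjamini-Hochberg within each contrast and called under 0.05. The fit was tested on simulated data. Deviations of samples with the same replicate number from their group means correlated above 0.1 in 56 of 198 pairs (median 0.04), so the numbers were not taken to pair samples. Pairs with the same number had medians of 0.04 between genotypes and 0.03 within them. With unlike numbers the medians were -0.02 and -0.01.

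The members and 18 lists (333 loci, 74 measured) were chosen with earlier results of these data known. Named members were the 12 with the largest wild type change, those on lists, those with the 4 largest and 4 smallest differences between anac017-2 and anac017-1, the 4 lowest and 4 highest peroxide changes and the 3 nearest each side of the limit, 18 genes in all. The rule also asked for neighbouring genes, of which there were none, and for shared gene descriptions, which the table does not hold. The other 12 single-gene members were added after their values were seen. For lists without a member, up to 2 loci with the lowest p in anac017-1 were named. Alternatives were raising low values to the lower quartile, quantile normalization, a filter on mean log2 under 5, array weights, a replicate block, all 36 arrays, other limits of the rule and each array left out in turn. Counts over the 35 members that met the rule without wild type antimycin A replicate 3 were added after the data were seen, as were the gene names given beyond these rules. Sequences and coordinates were not used here.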

Additional observations from a re-analysis of the deposited data

Results flagged for a closer look

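A difference in the antimycin A response between genotypes, tested as a difference of changes with limma over all 22746 probe sets, was called for 31 of the 57 between anac017-2 and anac017-1, 34 between anac017-2 and rao2 and 1 between rao2 and anac017-1. In every one of these calls the change was higher in the first genotype named. Of all probe sets, 21.2%, 17.0% and 0.936% were called higher in these comparisons, and 12.7%, 10.3% and 0.576% lower. For anac017-2 minus anac017-1, the differences in log2 were 4.15 for AT4G09500, 3.97 for AT5G01790, 3.68 for AT3G26960, 3.18 for AT1G23205, 3.12 for AT1G75900, 2.99 for AT1G67330 and 2.96 for AT5G41460. Those between 2 and 3 were 2.74 for AT4G28310, 2.52 for AT5G45950, 2.51 for P1R1, 2.25 for IQD19, 2.14 for AT4G28780, 2.11 for AT3G14740 and 2.01 for AT5G26790. The smaller ones were 1.97 for AT1G72230, 1.83 for AT5G02890, 1.51 for scpl50, 1.46 for AT1G06000, 1.43 for AT2G04570 and 1.43 for AT1G10850. Of these, AT4G09500, AT5G41460, IQD19 and AT3G14740 were not above background in anac017-1 after antimycin A, and with low values raised their differences were at least 3.70 for AT4G09500, 2.61 for AT5G41460, 1.91 for IQD19 and 1.68 for AT3G14740. For anac017-2 minus rao2, 6 of the 19 members with 1 gene that were called are given. They were 4.37 for AT3G23450 (2.26 without rao2 antimycin A replicate 3), 3.53 for AT1G72230, 3.52 for AT4G28780, 3.50 for AT1G75900, 2.64 for AT3G17050 and 2.39 for AT3G26960, and with low values raised at least 3.23 for AT4G28780 and 2.18 for AT3G17050. For rao2 minus anac017-1 it was 1.60 for 257890_s_at. Calls lost when all 36 arrays shared the spread included scpl50 and AT1G10850 against anac017-1, AT3G23450 against rao2, and 257890_s_at. Calls lost without at least 1 single array included AT1G67330 and AT1G10850 against anac017-1 and AT3G17050 against rao2.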

How the results depend on the processing

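The side of the threshold and the direction held in 2514 of 2692 values of single genes recomputed under the alternatives, 147 lost a call, 19 gained one and 12 changed sign, and 360 of 430 counts stayed within 1.5 times. The fit with the replicate block gave 22, 56 and 53 lowered members after antimycin A in anac017-2, rao2 and anac017-1, and 30 and 35 that differed between anac017-2 and each of anac017-1 and rao2, and it moved no count by more than 1.5 times. Array weights gave 5716 probe sets for antimycin A in anac017-2, 12 members for peroxide in rao2, 1710 probe sets and 4 members for peroxide in anac017-1, 705 probe sets for antimycin A minus peroxide in anac017-2, 3924 probe sets and 12 members for anac017-2 minus anac017-1 in water, 1930 probe sets for rao2 minus wild type under peroxide, and 3298 probe sets and 9 members for anac017-1 minus wild type under peroxide. The filter left 0 members for peroxide in anac017-1 and 21 probe sets for anac017-2 minus wild type under peroxide. All 36 arrays gave 3 members for antimycin A minus peroxide in anac017-2, 0 for rao2 minus anac017-1 and 2 for anac017-2 minus anac017-1 in water, where raised low values also gave 2. Limits of -2.5 and -3.5 took 127 and 27 probe sets.

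With 1 array left out in turn, members numbered 40 (without wild type antimycin A replicate 3) to 98 (without replicate 1). Antimycin A lowered 16 to 18 members in anac017-2 (2342 to 2765 probe sets changed, against 3610 with all arrays), 52 to 55 in rao2 (8658 to 9477) and 50 to 53 in anac017-1 (9573 to 9965). Peroxide gave 3 to 7 members and 1089 to 2432 probe sets in anac017-2, 4 to 8 and 1477 to 2569 in rao2, and 0 to 2 and 135 to 352 in anac017-1. Antimycin A minus peroxide gave 2 to 5 members and 648 to 1706 probe sets in anac017-2, 45 to 49 and 7548 to 8607 in rao2, and 46 to 51 and 9362 to 9845 in anac017-1. The response gave 29 to 33 members and 6966 to 7586 probe sets for anac017-2 minus anac017-1, 30 to 36 and 5242 to 6327 for anac017-2 minus rao2, and 1 to 4 and 193 to 616 for rao2 minus anac017-1. In water anac017-2 minus anac017-1 gave 1 member and 516 to 915 probe sets. Under peroxide, rao2 minus wild type gave 1 to 2 members and 250 to 828 probe sets, anac017-1 minus wild type 2 to 4 and 810 to 1369, and anac017-2 minus wild type 0 and 19 to 283. The arrays behind the lowest counts were anac017-2 water replicate 3 (2342), rao2 peroxide replicate 2 (1477), anac017-1 peroxide replicate 2 (135), anac017-2 peroxide replicate 2 (1089), anac017-2 peroxide replicate 3 (648), anac017-1 water replicate 2 (193 and 516), wild type peroxide replicate 2 (250 and 810) and wild type peroxide replicate 1 (19).

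The sign turned for 10 changes of single genes, none of which passed the test with all arrays, given here as ranges with each array left out. In anac017-2 they ran from -0.22 to 0.014 for AT1G75900, -0.17 to 0.19 for AT5G63180 (-0.018 and -0.020 without water replicates 2 and 3), -0.049 to 0.073 for HEME2 and -0.13 to 0.70 for WAG2. In rao2 they ran from -0.56 to 0.38 for EXPA9 and -0.13 to 0.035 for LHCB4.1, and in anac017-1 they ran from -0.096 to 0.043 for LHCB4.1. For anac017-2 minus anac017-1 they ran from -2.31 to 0.24 for AT4G10270, -0.33 to 1.36 for AT5G45700 and -1.49 to 0.29 for AT3G10040. The causes were not tested. The number of arrays per group and signals near background limit what these data resolve.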

Other observations

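Some members had nearly equal values on many arrays, within 0.02 log2 of each other. AT3G14740 did so on 10 arrays (mean 5.44), and P1R1 (6.27), AT5G45700 (5.40) and AT1G72230 (5.63) on 7 arrays each. For P1R1 these included the 3 wild type water arrays, whose SD was 0.0014 log2.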
